A study of Mus musculus with 6 samples.

Results

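The mouse mitochondrial genome is a small circular DNA, present in many copies per cell, that encodes 13 proteins of the respiratory chain and ATP synthase, 2 ribosomal RNAs and 22 transfer RNAs. All 37 of these genes are rows of the deposited liver table, which holds 28476 genes, and they were taken as the rows whose symbol starts with mt-. All 37 had a mean of at least 0.5 FPKM (sequenced fragments scaled by gene length and by the mapped total of the library), the level required for testing. They were compared between livers of Flox mice (n = 3 libraries) and of Nedd4 HepKO mice (n = 3 libraries), all of strain C57BL/6. Every mouse of both groups had been fasted overnight and received 300 mg/kg of the liver toxicant acetaminophen (APAP) by intraperitoneal injection, and livers were taken 24 h later. Livers without acetaminophen are not analysed here. The sources used here give neither the age and sex of the mice nor the Cre driver behind the name HepKO. Whether a library stands for a single animal is not stated in the labels. The p-values therefore measure only how these libraries scatter, which may be technical.

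Mitochondrial RNA is made as long transcripts of both strands of the circle. On the heavy-strand transcript, tRNAs sit between most mRNAs and rRNAs and are cut out to release them; the light-strand transcript carries mt-Nd6 and a minority of the tRNAs. The polymerase POLRMT with TFAM and TFB2M starts transcription, and the protein pair LRPPRC and SLIRP keeps the mRNAs stable. The 13 proteins join a larger set of nuclear-encoded subunits in complexes I, III, IV and V, whereas complex II is wholly nuclear. Hepatocytes are rich in mitochondria, and the reactive metabolite of acetaminophen binds mitochondrial proteins. The series title names VDAC1, a channel of the outer mitochondrial membrane, as a target of the ubiquitin ligase NEDD4-1, which the gene Nedd4 encodes.

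The sequences below belong to the members on which the results turn, the 2 tRNAs with the largest changes among the well-expressed ones and the mRNA that passed the test. The first pair are the isoleucine tRNA gene mt-Ti (MT:3706-3774, heavy-strand transcript) and the leucine tRNA gene mt-Tl1 (MT:2676-2750, heavy-strand transcript), from the GENCODE M21 transcripts on GRCm38, with the anticodon in capitals. The anticodon was located as the known triplet preceded by a T in the middle of the gene.
mt-Ti: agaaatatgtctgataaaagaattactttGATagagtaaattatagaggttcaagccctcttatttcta
mt-Tl1: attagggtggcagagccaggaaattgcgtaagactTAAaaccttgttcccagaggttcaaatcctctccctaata
Neighbouring members share bases, so a read there belongs to more than 1 row. Across the genome 9 pairs of members overlap, by 1 to 43 bases. The longest overlap joins mt-Atp8 and mt-Atp6, whose start codon opens the shared stretch, shown in capitals at MT:7907-7989. The next lines show mt-Nd4l with mt-Nd4 (MT:10147-10193) and the end of mt-Nd1 with the start of mt-Ti (MT:3686-3727), again with the shared bases in capitals.
mt-Atp8 and mt-Atp6: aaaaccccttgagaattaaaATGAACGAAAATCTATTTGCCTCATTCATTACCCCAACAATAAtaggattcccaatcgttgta
mt-Nd4l and mt-Nd4: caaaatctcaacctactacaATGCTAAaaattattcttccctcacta
mt-Nd1 and mt-Ti: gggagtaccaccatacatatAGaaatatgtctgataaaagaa

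A stretch of the mitochondrial genome also exists as a copy in nuclear chromosome 1, and this limits the reading of at least 7 of the 13 mRNAs. Searching the GENCODE M21 transcripts for runs of 100 bases identical to a member found 10 nuclear pseudogenes. Every tRNA gene is shorter than 100 bases, so this search could not find a copy of any tRNA. Nuclear DNA outside the annotated transcripts was not searched. Of these, 3 on chromosome 2 had means of 6.95 to 17.6 FPKM, and 7 lie side by side on chromosome 1 between 24611535 and 24616197 (GRCm38). Those 7 copy the end of mt-Co1, then mt-Co2, mt-Atp6, mt-Co3, mt-Nd3, mt-Nd4l and the first 876 bases of mt-Nd4. On the mitochondrial genome, mt-Ts1, mt-Td, mt-Tk, mt-Atp8, mt-Tg and mt-Tr lie between these genes. Whether the chromosome 1 bases between the pseudogenes copy them was not examined, so their levels may be uncertain too. The copies of mt-Co2, mt-Atp6, mt-Co3, mt-Nd4l and mt-Nd4 were identical to the gene over every aligned base. The copy of mt-Co1 differed at 6 of 492 aligned bases, all at positions 1056 to 1066 of the gene, next to the edge of the aligned part. The copy of mt-Nd3, Gm28438, differed from the gene at 1 of 345 aligned bases, T3C, counted from the first base of mt-Nd3. The first 60 bases of both are shown with that base in capitals.
mt-Nd3 (MT:9459-9518): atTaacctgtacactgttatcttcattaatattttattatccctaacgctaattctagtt
Gm28438 (chr1:24613060-24613119, minus strand): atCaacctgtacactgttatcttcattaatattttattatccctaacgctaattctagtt
The chromosome 1 copies carried FPKM of the same order as the genes. Gm28438 had 0.851 to 0.998 times the FPKM of mt-Nd3 in every library, and the copies of mt-Co2, mt-Atp6, mt-Co3 and mt-Nd4l had 0.813 to 1.05 times that of their genes. The partial copies had 0.415 to 0.542 times that of mt-Co1 and 0.448 to 0.516 times that of mt-Nd4. Reads that fit both places cannot be assigned, so the levels of these 7 mRNAs are uncertain, and each is given below also as the sum with its copy.

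The labels were checked on Nedd4 (chr9:72662346-72749852). It had 2.18, 2.59 and 2.23 FPKM in Flox livers against 0.618, 0.666 and 0.565 FPKM in HepKO livers, 3.78-fold lower (log2 fold change -1.04, SE 0.10, limma adjusted p = 0.0015). Depth per library is unknown. All 12 hepatocyte markers were above 0 in every library, with summed levels of 51003 to 58089 FPKM in Flox against 56499 to 61109 FPKM in HepKO livers. Of the 12, Fgb was called higher, and Cps1 and Hnf4a were called lower (log2 fold changes 0.81, -1.25 and -0.41). Of 9 neutrophil markers, 8 were tested and all 8 rose, from sums of 10.6 to 20.5 FPKM to sums of 134 to 160.4 FPKM. Of 7 erythrocyte markers, 4 rose, from sums of 132 to 234 FPKM to 974, 889 and 551 FPKM in HepKO replicates 1, 2 and 3. Monocyte and macrophage markers had 5 higher and 1 lower of 8 tested (sums of 91.2 to 113 against 146 to 178 FPKM), and cholangiocyte markers had 2 higher of 5 tested (25.8 to 35.5 against 51.3 to 67.4 FPKM). Stellate cell markers had 3 higher of 9, sinusoidal endothelial markers 3 higher and 1 lower of 9, and Kupffer cell markers 1 higher of 9. Muscle and brown fat markers were lower in HepKO livers, with sums of 14.9 to 16.9 FPKM in Flox and 0.983 to 8.10 FPKM in HepKO livers. Of their 4 tested genes all had log2 fold changes below 0, 1 was called lower (Ckm), and Ucp1 was at 0 in every library. Of the 12712 genes tested, 1186 (9.33%) were called higher and 1397 (11.0%) lower in HepKO livers. The part of these other cells in the mitochondrial values was not tested.

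The share was 16.7%, 18.1% and 17.0% in Flox replicates 1, 2 and 3, and 24.6%, 18.3% and 17.2% in HepKO replicates 1, 2 and 3. HepKO replicate 1 stood above all other libraries, while HepKO replicates 2 and 3 lay close to or within the Flox range. Counting the chromosome 1 copies as mitochondrial raised the shares to 22.5%, 24.6% and 23.6% in Flox livers and to 32.8%, 25.9% and 23.4% in HepKO livers, in the same order. The mRNAs made up 92.4% to 95.1% of the mitochondrial FPKM, and the excess of HepKO replicate 1 lay in them, at 115956 FPKM against 70364 to 83476 FPKM in the other 5 libraries. Its rRNA sum of 1829 FPKM was within the range of the other libraries (1819 to 2422 FPKM). Its tRNA sum of 4136 FPKM was the highest, against 3004 to 3579 FPKM elsewhere. These sums are descriptions and were given no test.

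**Figure D1:**
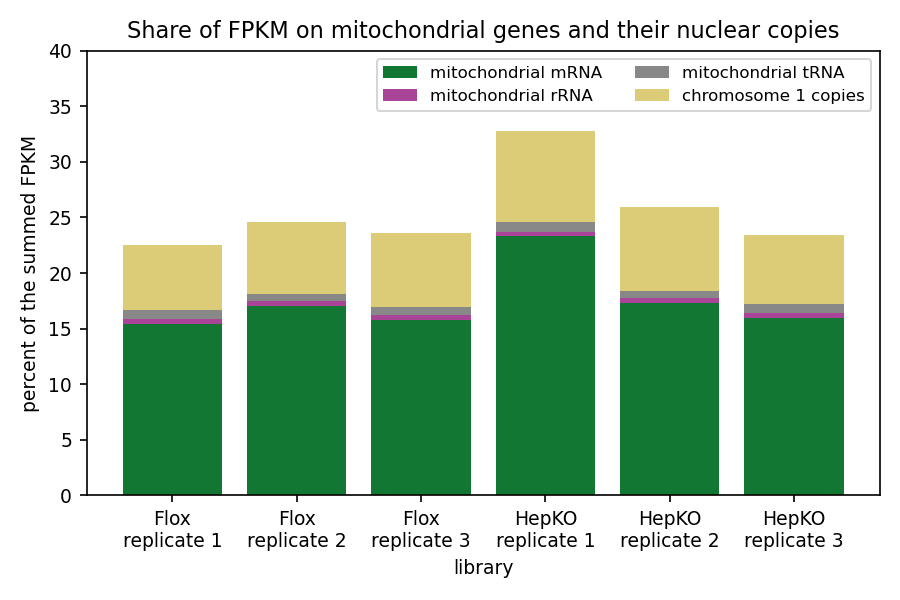
Percent of each library's summed FPKM on mitochondrial mRNAs, rRNAs and tRNAs and on the 7 chromosome 1 copies, one stacked bar per library. HepKO replicate 1 reaches 32.8% in all, and the other 5 libraries lie between 22.5% and 25.9%.

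Among the mRNAs, 12 of 13 had a mean log2 fold change above 0, but none passed the test as higher in HepKO livers, and mt-Nd3 was called lower. Over all 37 members, 0 were called higher and 2 lower, against 9.33% and 11.0% of all tested genes (20.3% in either direction). Without HepKO replicate 1, 1 was higher (mt-Tl1) and 1 lower (mt-Ti), against 6.84% and 6.23% of all tested genes. At an unadjusted p under 0.05, 3 of the 37 members were higher and 6 lower, against 14.8% and 20.9% of all tested genes. The median log2 fold change was 0.28 over the 13 mRNAs, 0.06 over the 37 members and -0.06 over all tested genes. Without HepKO replicate 1 the mRNA median was 0.07, with 9 above 0 and 4 below. Rescaling every library to the same sum of all genes left 10 of the 13 above 0, and rescaling to the same sum of the mitochondrial mRNAs, which moves the median of all genes to -0.25, left 7.

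The gene that passed, mt-Nd3, encodes a small subunit of complex I (MT:9459-9806). It had 1224, 1310.2 and 1372 FPKM in Flox livers against 965, 1073 and 1012 FPKM in HepKO livers. Every HepKO library lay below every Flox library, HepKO replicate 1 lowest. The level was 1302 ± 74.3 FPKM in Flox against 1017 ± 54.1 FPKM in HepKO livers (SD, n = 3; log2 fold change -0.36, SE 0.10, limma adjusted p = 0.048). The call lies at the threshold. It was lost without any 1 of the 6 libraries (adjusted p = 0.055 to 0.16) and after median-ratio rescaling (adjusted p = 0.10). It was lost with no filter on low genes (0.14) and after rescaling to the sum of the mitochondrial mRNAs (0.11). Under that last rescaling the log2 fold change was larger in size, at -0.63. The call was also lost with the copy Gm28438 added (log2 fold change -0.33, adjusted p = 0.092). The copy itself had 1042, 1134 and 1302 FPKM in Flox against 828, 1071 and 934 FPKM in HepKO livers, with overlap between groups.

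The other complex I mRNAs had higher values in HepKO replicate 1 than in any other library. The core subunit gene mt-Nd1 (MT:2751-3707) had 5381, 6028 and 5801 FPKM in Flox against 9369.6, 6529 and 5617 FPKM in HepKO livers. The proton-pumping subunit gene mt-Nd2 (MT:3914-4951) had 5687, 6286 and 5758 FPKM in Flox against 8651, 6099 and 5680.5 FPKM in HepKO livers. In both, HepKO replicates 2 and 3 were near the Flox livers, and neither passed (log2 fold changes 0.29 and 0.18, limma adjusted p = 0.33 and 0.49). The membrane subunit gene mt-Nd4 (MT:10167-11544) had 4881, 5582 and 5085 FPKM in Flox against 7982, 5675 and 4957 FPKM in HepKO livers. Its overlapping neighbour mt-Nd4l (MT:9877-10173) had 2115, 2952 and 2365 FPKM in Flox against 4221, 2508 and 2515 FPKM in HepKO livers. Neither passed, alone (adjusted p = 0.41 and 0.43) or summed with its copy (adjusted p = 0.34 and 0.35).

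Further along the heavy-strand transcript, mt-Nd5 (MT:11742-13565), another proton-pumping subunit of complex I, had 1868, 2255 and 2177 FPKM in Flox against 3809.8, 2405 and 2705 FPKM in HepKO livers. The groups did not overlap, yet the spread among the HepKO livers was wide and the gene did not pass (log2 fold change 0.48, SE 0.19, limma adjusted p = 0.12). The only light-strand mRNA, mt-Nd6 (MT:13552-14070), had 3134, 3204 and 3402 FPKM in Flox against 5138, 3530.2 and 3978 FPKM in HepKO livers. It did not overlap either and did not pass (log2 fold change 0.36, SE 0.15, adjusted p = 0.15). The last 14 bases of mt-Nd5 are the antisense of the end of mt-Nd6, and the sources used here do not say whether reads were counted by strand.

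Complex III has a single mitochondrial gene, mt-Cytb (MT:14145-15288), which encodes cytochrome b. It had 8243, 8452 and 8697 FPKM in Flox livers against 15246, 11223 and 9304 FPKM in HepKO livers, so all 3 HepKO libraries lay above the Flox range. The mean was 8464 ± 227 FPKM in Flox against 11924 ± 3033 FPKM in HepKO livers (SD, n = 3; ratio 1.41). The log2 fold change was 0.46 (SE 0.18; 95% interval by limma from 0.03 to 0.90), and cytochrome b missed the threshold (adjusted p = 0.12). Without HepKO replicate 1 it was 0.27.

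The complex IV genes, which encode the catalytic core of cytochrome c oxidase, included the most abundant member. This was mt-Co1 (MT:5328-6872), with 12906, 14519.6 and 13519 FPKM in Flox against 20086, 15367 and 13368 FPKM in HepKO livers (log2 fold change 0.23, limma adjusted p = 0.35). The copper-site subunit gene mt-Co2 (MT:7013-7696) had 6254, 7123 and 6318 FPKM in Flox against 8591, 6303 and 5691 FPKM in HepKO livers. For mt-Co3 (MT:8607-9390), the third core subunit, the values were 5609, 5994 and 5339.8 FPKM in Flox against 6714, 5739 and 4777 FPKM in HepKO livers. In both genes the highest value was in HepKO replicate 1 and the lowest in HepKO replicate 3. Their log2 fold changes of 0.04 (95% interval -0.36 to 0.45) and 0.01 (-0.33 to 0.36) turned negative, to -0.13 and -0.11, without HepKO replicate 1. Summed with the copies, mt-Co1, mt-Co2 and mt-Co3 had log2 fold changes of 0.26, 0.08 and 0.05, and none passed.

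The ATP synthase genes mt-Atp8 and mt-Atp6, which share the 43 bases shown above, encode subunits of its membrane part. The first (MT:7766-7969) had 5754, 6843 and 5879 FPKM in Flox against 11983, 7672 and 6445 FPKM in HepKO livers. The second (MT:7927-8607) had 7309, 7594 and 6948 FPKM in Flox against 13200.0, 9352 and 7272 FPKM in HepKO livers. Both groups overlapped only through HepKO replicate 3. The log2 fold changes were 0.45 and 0.41 and neither passed (limma adjusted p = 0.21 and 0.22). The sum of mt-Atp6 and its copy Gm10925 had a log2 fold change of 0.43 (adjusted p = 0.15). No such sum was formed for mt-Atp8, although the 43 bases it shares with mt-Atp6 also lie in Gm10925.

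**Figure D2:**
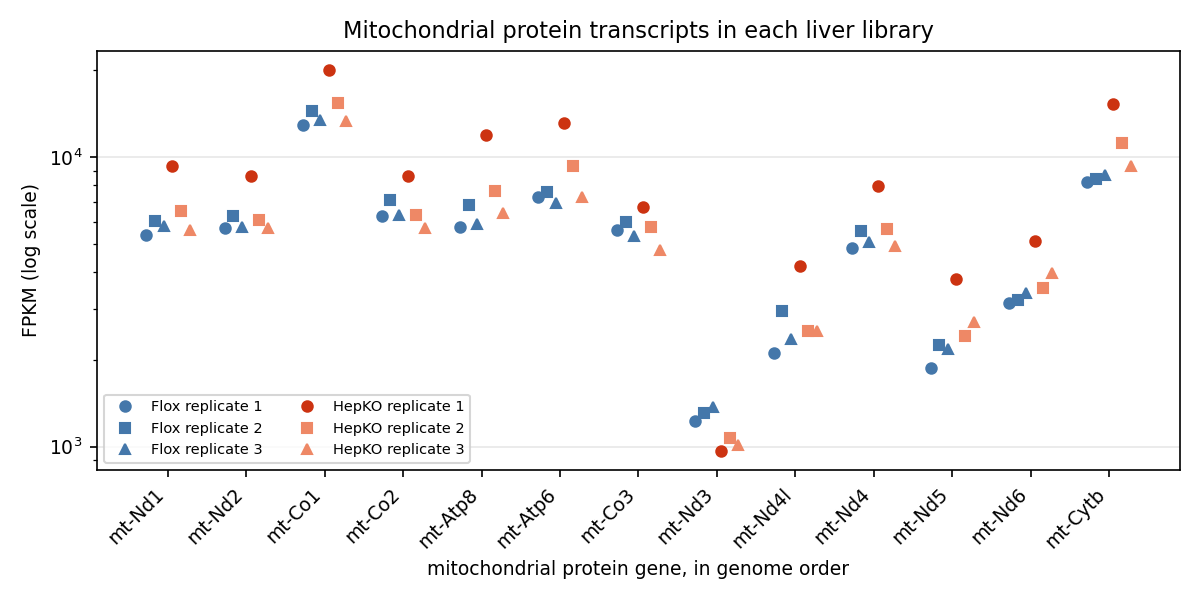
FPKM on a log axis for the 13 mitochondrial protein genes in genome order, one point per library. HepKO replicate 1 is the highest of the 6 libraries for 12 genes and the lowest for mt-Nd3.

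HepKO replicate 1 was the highest of the 6 libraries for 12 of 13 mRNAs, against 12.2% of all tested genes. For these 12 genes it stood 1.28 to 1.70 times above the mean of HepKO replicates 2 and 3, with mt-Co3 at the low end and mt-Atp8 at the high end. The other 2 HepKO libraries averaged 0.80 times the Flox mean for mt-Nd3 and 1.22 times for mt-Nd5, the extremes among the 13. Of the 37 members, 4 lay above the Flox range in all HepKO libraries (mt-Tl1, mt-Nd5, mt-Nd6 and mt-Cytb) and 4 below it (mt-Nd3, mt-Rnr2, mt-Ti and mt-Tp). Over all tested genes, 17.2% and 25.2% did so.

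As a share of the mitochondrial FPKM, mt-Co1 took 16.5% to 17.5% in all 6 libraries, and mt-Nd1 7.07% to 7.69%. Of the 37 members, 2 took a share that was higher in every HepKO library than in any Flox library (mt-Tl1 and mt-Cytb), and 10 took a lower one (mt-Nd2, mt-Nd3, mt-Co2, mt-Co3, mt-Rnr2, mt-Ti, mt-Tf, mt-Tm, mt-Tg and mt-Tp). Leaving out HepKO replicate 1 can only keep or raise these numbers, and they stayed at 2 and 10, so this says nothing about their stability. The shares of a library sum to a whole, so they are not independent of each other. They are defined only for the members, so no count over all genes stands beside these numbers. The total leaves out the chromosome 1 copies. Of the members named, mt-Co2, mt-Co3 and mt-Nd3 have such a copy, so their shares are uncertain. The search could not find copies of the tRNA genes named, so their shares may be uncertain too. The share of mt-Cytb was 10.2% to 11.1% in Flox and 11.8% to 12.7% in HepKO livers. The share of mt-Co2 was 8.06% to 8.57% in Flox and 7.05% to 7.21% in HepKO livers, and that of mt-Co3 was 6.81% to 7.37% and 5.51% to 6.50%. The share of mt-Nd3 was 1.58% to 1.75% in Flox livers and 0.792%, 1.22% and 1.28% in HepKO replicates 1, 2 and 3.

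Averaged over all 6 of these poly(A)-selected libraries, both ribosomal RNAs had less per length than any of the 13 mRNAs. They had 995 and 1055 FPKM, against 1160 FPKM for the lowest mRNA, mt-Nd3, whose level is uncertain because of its copy. In HepKO livers alone, mt-Rnr1 averaged 1052 FPKM and mt-Nd3 1017 FPKM. The small-subunit rRNA gene mt-Rnr1 (MT:70-1024) had 1109.7, 915 and 1151 FPKM in Flox against 1045, 1008 and 1102 FPKM in HepKO livers, with a log2 fold change of -0.0033 and a 95% limma interval of -0.29 to 0.28. The large-subunit rRNA gene mt-Rnr2 (MT:1094-2675) had 1098, 1054 and 1271 FPKM in Flox against 784, 811 and 951 FPKM in HepKO livers. Here the groups did not overlap, and HepKO replicate 1 was the lowest library. The log2 fold change of -0.43 (SE 0.13) missed the threshold (limma adjusted p = 0.055). Over the alternatives the adjusted p ranged from 0.045 to 0.17, and the gene passed when HepKO replicate 3 was left out or when libraries were scaled to an equal total of all other genes.

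The tRNA genes covered a far wider range, from 0.637 to 1455 FPKM on average, and included the clearest difference between genotypes. Such genes are shorter than the library fragments, so their FPKM were not compared per length with those of the mRNAs. In these poly(A)-selected libraries, reads on such rows may come from longer RNAs that span the gene. The values are therefore not read as levels of the mature tRNAs. The isoleucine tRNA gene mt-Ti fell in HepKO livers, with 90.0, 103 and 116 FPKM in Flox against 49.6, 48.1 and 55.3 FPKM in HepKO livers. All HepKO libraries lay well below the Flox range, and HepKO replicate 1 lay between the other 2. The Flox mean was 2.02 times the HepKO mean (log2 fold change -0.99, SE 0.12, limma adjusted p = 0.0033), and the call held in all 19 alternatives (adjusted p = 0.0028 to 0.019). The authors' deposited table also has it past 0.05 (q = 0.032). Its neighbours differ from it: mt-Nd1, which ends on its first bases, had a log2 fold change of 0.29, and the glutamine tRNA gene mt-Tq, which overlaps its last 3 bases on the other strand, had -0.28 with overlapping groups.

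The leucine tRNA gene mt-Tl1, which decodes UUR codons and lies between mt-Rnr2 and mt-Nd1 with no base between them, had 444, 372 and 439.5 FPKM in Flox against 1021, 626 and 574 FPKM in HepKO livers. All HepKO libraries lay above the Flox range. The log2 fold change of 0.78 (SE 0.23) just missed the threshold (limma adjusted p = 0.053) and passed without HepKO replicate 1 (0.52, adjusted p = 0.044) and without HepKO replicate 3 (0.94, adjusted p = 0.044). In the authors' deposited table its q-value is 0.0044. The proline tRNA gene mt-Tp, a light-strand gene at the edge of the control region, had 634, 628 and 620.3 FPKM in Flox against 525, 460.1 and 573 FPKM in HepKO livers. Its groups did not overlap, and it did not pass (log2 fold change -0.28, adjusted p = 0.13).

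The remaining well-expressed tRNA genes showed overlapping groups. The glutamate gene mt-Te, next to mt-Nd6 on the light strand, was the most abundant, with 1609, 1238 and 1373 FPKM in Flox against 1735, 1200.0 and 1574 FPKM in HepKO livers. The light-strand block of mt-Ta (alanine), mt-Tn (asparagine), mt-Tc (cysteine) and mt-Ty (tyrosine) summed to 618, 459 and 567 FPKM in Flox against 604, 542 and 618 FPKM in HepKO livers. Their log2 fold changes were 0.06, 0.03, 0.07 and 0.30. The methionine gene mt-Tm had 107, 122 and 123 FPKM in Flox against 125, 76.3 and 90.7 FPKM in HepKO livers. HepKO replicate 1 lay above the Flox livers and the other HepKO livers below them.

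Of the 5 other tRNA genes with a mean between 5 and 20 FPKM, none passed. The tryptophan gene mt-Tw had 19.1, 17.6 and 17.6 FPKM in Flox against 19.6, 19.0 and 18.2 FPKM in HepKO livers, the narrowest spread of them. The glycine gene mt-Tg had 16.5, 17.9 and 12.1 FPKM in Flox against 13.2, 10.8 and 5.82 FPKM in HepKO livers (log2 fold change -0.64, limma adjusted p = 0.16). Those of glutamine (mt-Tq), arginine (mt-Tr) and threonine (mt-Tt) had log2 fold changes of -0.28, -0.15 and -0.13. A further 8 tRNA genes averaged under 5 FPKM (mt-Tf, mt-Tv, mt-Ts1, mt-Td, mt-Tk, mt-Th, mt-Ts2 and mt-Tl2). Of these, the histidine gene mt-Th came nearest to the threshold, with 1.59, 3.06 and 3.08 FPKM in Flox against 0.551, 0.803 and 1.68 FPKM in HepKO livers (log2 fold change -0.84, adjusted p = 0.066). It passed without Flox replicate 1 (adjusted p = 0.039) and without HepKO replicate 3 (adjusted p = 0.035). It also passed with a replicate block and after rescaling to the sum of the mitochondrial mRNAs. The phenylalanine gene mt-Tf had 1.16, 1.93 and 3.19 FPKM in Flox against 0.835, 1.19 and 0.889 FPKM in HepKO livers. It missed the threshold (adjusted p = 0.12), and it passed without Flox replicate 1 (adjusted p = 0.037). The valine gene mt-Tv had 0.0864, 0.163 and 1.49 FPKM in Flox against 1.83, 2.22 and 0.721 FPKM in HepKO livers (adjusted p = 0.19). For the serine genes mt-Ts1 and mt-Ts2, the aspartate gene mt-Td, the lysine gene mt-Tk and the leucine gene mt-Tl2, log2 fold changes lay between -0.59 and 0.29. In the authors' deposited table, 3 of the 37 members have a q-value under 0.05 (mt-Tl1, mt-Ti and mt-Nd5, the last at 0.048), against 17.5% of the genes tested here.

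**Figure D3:**
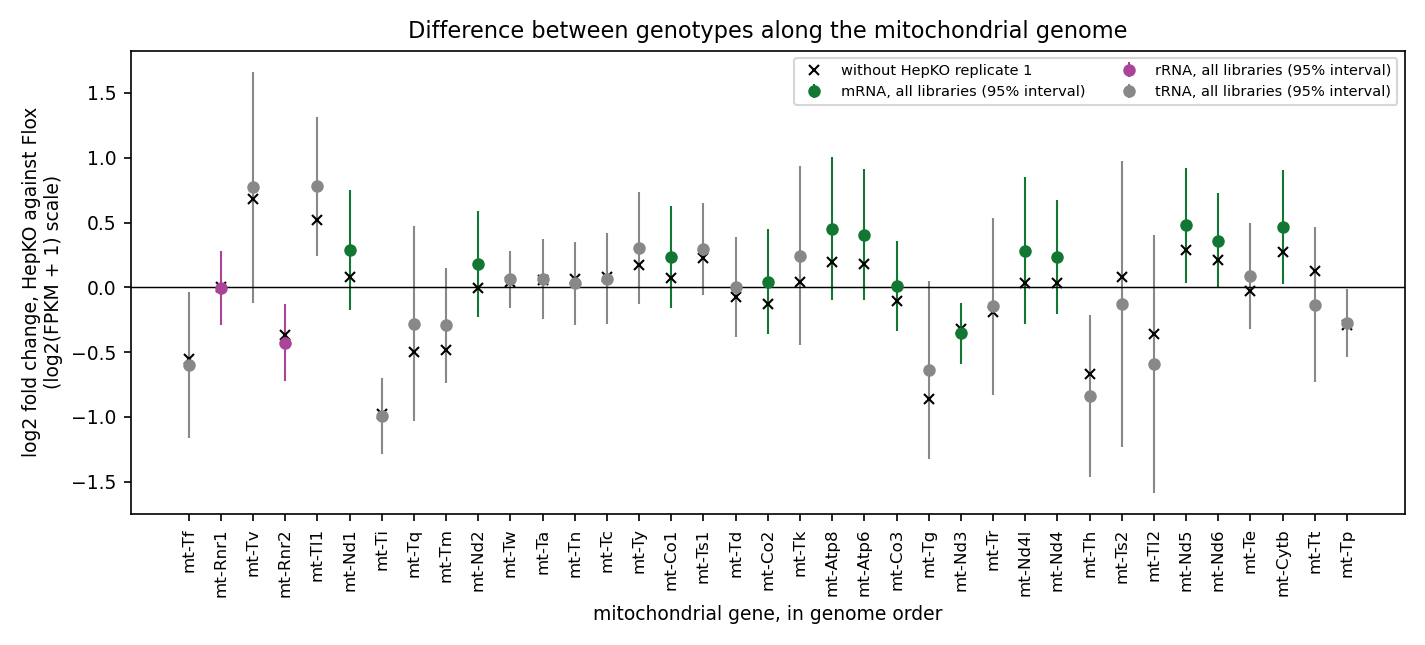
Log2 fold change of HepKO against Flox livers for the 37 mitochondrial genes in genome order, with 95% limma intervals; crosses give the value without HepKO replicate 1. mt-Ti lies lowest at -0.99, mt-Tl1 highest at 0.78, and 12 of 13 mRNAs lie above 0 with all libraries.

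The order of the libraries was not the same for the chromosome 1 copies as for their genes, apart from HepKO replicate 1. HepKO replicate 1 was the highest library for every copy apart from Gm28438, the copy of mt-Nd3, for which it was the lowest. The copy of mt-Atp6, Gm10925, had 6042, 6739 and 6942 FPKM in Flox against 10734, 9789.9 and 7013 FPKM in HepKO livers, with no overlap. No copy passed (limma adjusted p = 0.11 to 0.70). The ratio of copy to gene differed by library. For the copies of mt-Co2, mt-Co3 and mt-Nd3, chosen after their values were seen, it was 0.82 to 0.866 in Flox replicates 1 and 2 and HepKO replicate 1, 0.889 to 0.949 in Flox replicate 3 and HepKO replicate 3, and 0.994 to 0.998 in HepKO replicate 2. These libraries come from both genotypes. For mt-Nd4 and its partial copy the ratio was 0.448, 0.465 and 0.491 in Flox against 0.516, 0.502 and 0.506 in HepKO livers, with no overlap. For all other copies the ratios of the groups overlapped. The split of reads between gene and copy therefore varied by library, and its part in the small differences between libraries was not tested beyond the sums given above.

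**Figure D4:**
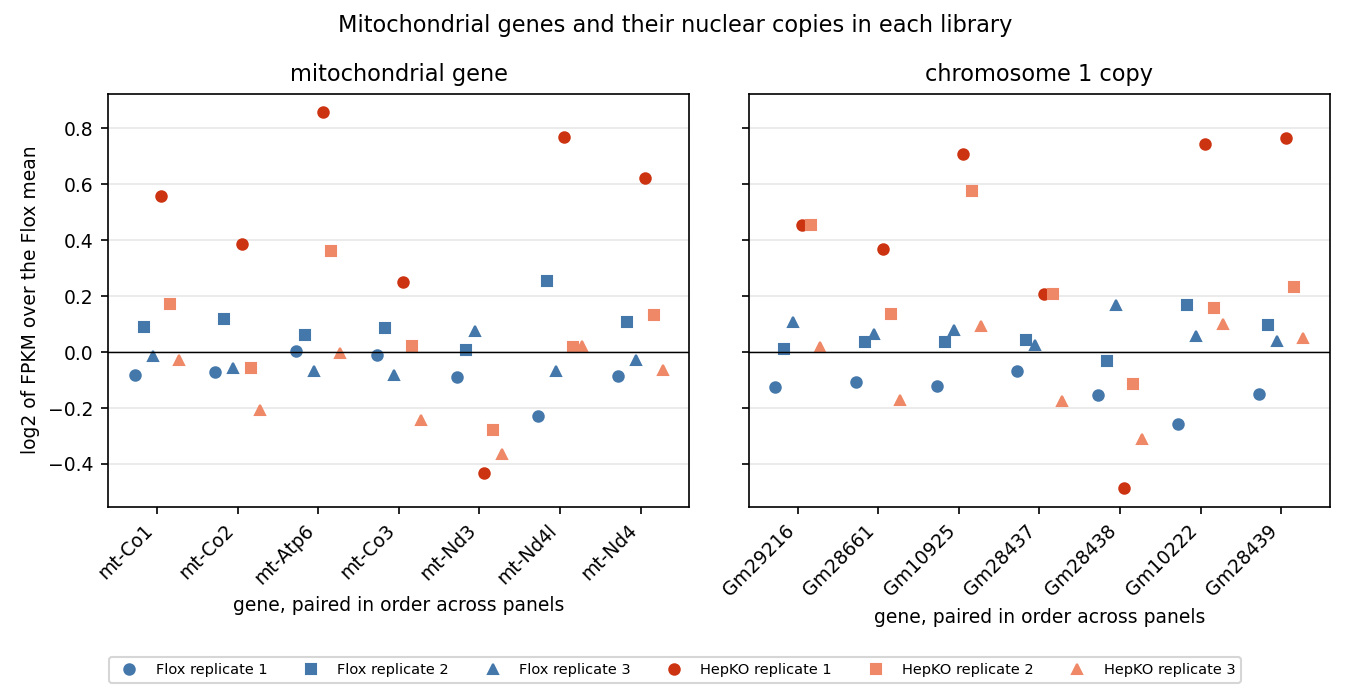
Log2 of each library's FPKM over the Flox mean for 7 mitochondrial mRNAs (left) and their chromosome 1 copies (right), paired in the same order. HepKO replicate 1 lies above 0 for 6 pairs and below 0 for mt-Nd3 and Gm28438.

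Of 79 tested nuclear subunits of complexes I to V, 8 were called lower and 0 higher (10.1% lower, close to the 11.0% of all tested genes). At an unadjusted p under 0.05, 37 were lower and 0 higher, against 20.9% and 14.8% of all tested genes. The median log2 fold change was -0.35, against -0.06 over all tested genes, and 76 of 79 were below 0. The lower calls were 5 without HepKO replicate 1, 4 without Flox replicate 1, 1 without Flox replicate 3, 0 without Flox replicate 2 or HepKO replicate 2, and 11 without HepKO replicate 3. The median stayed between -0.41 and -0.23 in these 6 fits. It ranged from -0.62 to -0.26 over the other scalings.

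Complex II, which has no mitochondrial subunit, had 3 of 4 genes called lower. This and the calls of the other complexes rest on the full set of libraries, since the counts above fell to 0 without Flox replicate 2 or HepKO replicate 2. The flavoprotein gene Sdha had 71.7, 77.6 and 67.9 FPKM in Flox against 45.1, 51.1 and 52.0 FPKM in HepKO livers (log2 fold change -0.54, limma adjusted p = 0.0155). The membrane anchor genes Sdhc and Sdhd had log2 fold changes of -0.46 and -0.61, and Sdhd, the most abundant, had 141, 149 and 135 FPKM in Flox against 74.0, 102 and 104 FPKM in HepKO livers. In complex I, 3 of 37 nuclear subunits fell (Ndufs1, Ndufs5 and Ndufs7, log2 fold changes -0.51, -0.40 and -0.71), and its most abundant, Ndufb9, did not pass (-0.25, adjusted p = 0.33). In ATP synthase, 2 of 17 fell (Atp5pb and Atp5g1, -0.43 and -0.81), and the most abundant, the catalytic beta subunit gene Atp5b, had -0.22 (adjusted p = 0.13). By limma, no nuclear subunit of complex III (0 of 9) or complex IV (0 of 12) was called; at an unadjusted p under 0.05, 3 of each were lower. Their most abundant genes Uqcr10 and Cox6a1 had log2 fold changes of -0.14 and -0.18. In those lists the summed level was lowest in HepKO replicate 1, at 649.7 and 1117 FPKM, against 796 to 903 FPKM and 1486 to 1683 FPKM in the other libraries.

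The balance of the 2 genomes differed most in HepKO replicate 1. The 13 mitochondrial mRNAs summed to 12.6, 14.7 and 13.6 times the 76 nuclear subunits of complexes I, III, IV and V in Flox livers. In HepKO replicates 1, 2 and 3 they summed to 32.0, 17.7 and 14.8 times. The lowest HepKO value lay just above the highest Flox value, and HepKO replicate 1 had both the highest mitochondrial sum (115956 FPKM) and the lowest nuclear sum (3626 FPKM, against 4704 to 5585 FPKM). By complex, the ratio in Flox livers was 16.3 ± 1.43 for complex I, 9.71 ± 0.503 for complex III, 15.6 ± 1.17 for complex IV and 10.4 ± 0.841 for ATP synthase (SD, n = 3). In HepKO livers it was 26.7 ± 12.0, 16.3 ± 6.35, 21.7 ± 8.84 and 18.9 ± 8.93, in the same order. For complex IV, HepKO replicate 3 had 14.9 and lay inside the Flox range of 14.7 to 17.0. These ratios combine many genes and were given no test, and in whole liver fewer cells of a type and less RNA per cell cannot be told apart. Erythrocyte markers were also highest in HepKO replicate 1 (974 FPKM), and their part in these ratios was not tested.

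**Figure D5:**
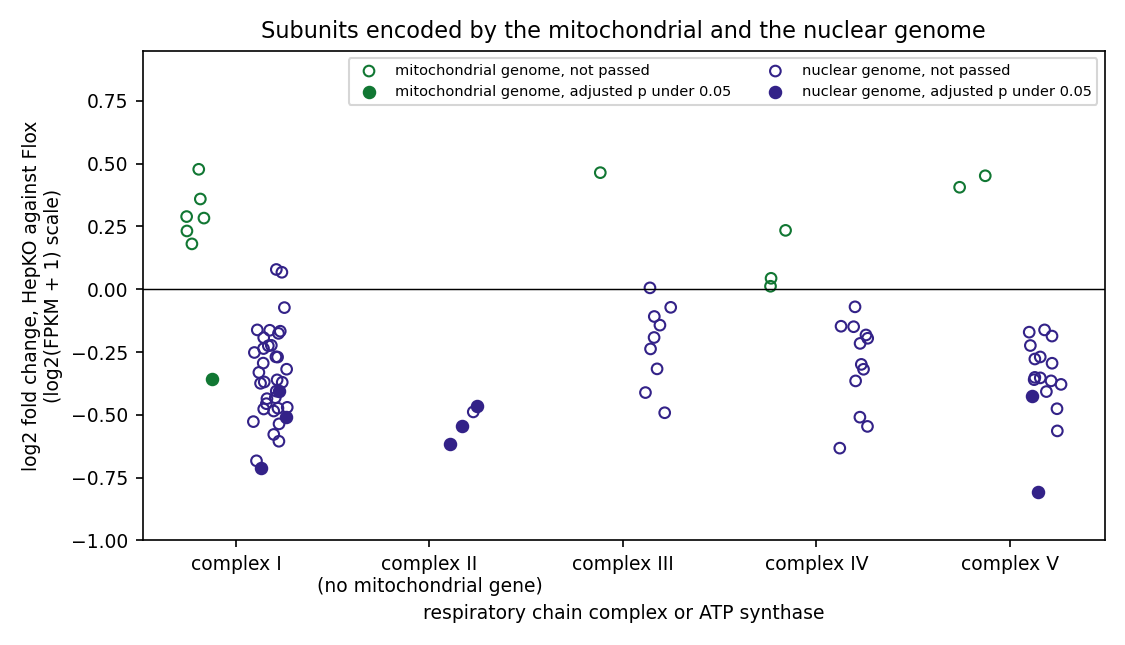
Log2 fold change of HepKO against Flox livers for mitochondrial and nuclear subunits of each complex, one point per gene, filled where the limma adjusted p is under 0.05; points are spread sideways for legibility. Of the 13 mitochondrial genes 12 lie above 0, and 76 of the 79 nuclear genes lie below 0.

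Of 21 tested nuclear genes that copy and transcribe mitochondrial DNA, 2 fell and 0 rose, against 11.0% and 9.33% of all tested genes. The 2 were Twnk, the replicative helicase (7.75 to 4.33 FPKM, log2 fold change -0.71, limma adjusted p = 0.014), and Ssbp1, the single-strand binding protein (3.04 to 2.09 FPKM, adjusted p = 0.043). The lower calls were 1 without HepKO replicate 1 and 1 after median-ratio rescaling. The packaging and transcription factor gene Tfam had 9.22, 9.66 and 10.3 FPKM in Flox against 6.53, 7.46 and 8.12 FPKM in HepKO livers. The groups did not overlap, and HepKO replicate 1 was lowest, but the gene did not pass (log2 fold change -0.36, adjusted p = 0.062). The RNA polymerase gene Polrmt, the initiation factor gene Tfb2m and the DNA polymerase gene Polg had log2 fold changes of -0.22, -0.13 and -0.38 and did not pass (adjusted p = 0.21, 0.53 and 0.064).

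Of 25 genes for processing and stability of mitochondrial RNA, 1 fell and 0 rose, against 11.0% and 9.33% of all tested genes. The 1 was Fastkd1 (3.03 to 1.68 FPKM, limma adjusted p = 0.0078). Without HepKO replicate 1 the lower calls were 2, and median-ratio rescaling gave 1 lower and 1 higher. The mRNA-stabilising pair Lrpprc and Slirp had log2 fold changes of -0.35 and -0.42 and did not pass (adjusted p = 0.090 and 0.12). Elac2, which cuts the 3′ ends of mitochondrial tRNAs, had 8.38, 9.45 and 9.46 FPKM in Flox against 6.89, 7.54 and 7.19 FPKM in HepKO livers (-0.30, adjusted p = 0.075). Trmt10c, a subunit of the enzyme that cuts their 5′ ends, had 11.4 and 11.5 FPKM on average in Flox and HepKO livers (0.0065, adjusted p = 0.98). The degradation genes Pnpt1 and Supv3l1 had -0.19 and 0.14, the RNA granule genes Fastkd5 and Grsf1 had -0.33 and -0.17, and none of these 4 passed.

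Of 15 mitochondrial translation factors, 6 were called lower and 0 higher, against 11.0% and 9.33% of all tested genes. Without HepKO replicate 1 the lower calls were 2, and after median-ratio rescaling 4. Among the 6 was the elongation factor gene Tufm (33.0 to 22.6 FPKM, log2 fold change -0.54, limma adjusted p = 0.0495). The initiation factor gene Mtif2 had -0.35 and did not pass (adjusted p = 0.11). Of 78 mitochondrial ribosomal protein genes, 14 were called lower and 0 higher (median -0.25). For them the lower calls were 5 without HepKO replicate 1, and median-ratio rescaling gave 10 lower and 1 higher. Of 21 tested aminoacyl-tRNA synthetase and related genes, 2 fell, Aars2 and Gatb, with 0 lower calls without HepKO replicate 1 and 1 after median-ratio rescaling. By limma no regulator of mitochondrial biogenesis was called (0 of 7 tested), and at an unadjusted p under 0.05 there were 1 higher and 1 lower. The coactivator gene Ppargc1a had 2.14, 0.689 and 0.784 FPKM in Flox against 0.857, 0.672 and 1.09 FPKM in HepKO livers, the transcription factor gene Nrf1 had a log2 fold change of 0.09, and the nuclear receptor gene Esrra had -0.50 (adjusted p = 0.12). Over all 245 nuclear genes of these lists, 33 were lower (13.5%, near the 11.0% of all tested genes) and 0 higher. At an unadjusted p under 0.05, 94 were lower and 3 higher, against 20.9% and 14.8% of all tested genes. The lower calls numbered 15 without HepKO replicate 1, 5 without HepKO replicate 2, 4 without Flox replicate 2 and 4 without Flox replicate 3.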

How the data were processed

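Poly(A)-selected liver RNA was sequenced as paired ends with a dUTP-marked second strand, per the labels' protocols. The authors deposited FPKM per gene, the unit given in the file headers. The submitters' processing notes list DESeq2, edgeR, StringTie 1.3.4d, HISAT2 2.0.4 and cutadapt 1.9, with no role for any. The p-value and q-value columns the authors deposited were used only where named. The tool that made them and the genome build are not stated in the sources used here. All 37 mitochondrial rows have the same position in GENCODE M21 (GRCm38), as do 25619 of the 28396 gene IDs found there.

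Depth cannot be had from FPKM, and no count model was applied. The 12712 genes averaging at least 0.5 FPKM were tested by limma 3.58.1 (R 4.3.3) on the log2 of FPKM plus a pseudocount of 1. Genotype was the single factor, with a mean-dependent prior variance. Tests were two-sided, with Benjamini-Hochberg adjustment over all 12712 genes and a threshold of 0.05. This scale understates log2 fold changes of low genes. Sums and plots used Python 3.11.15, pandas 2.3.3 and matplotlib 3.10.9.

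Every member was named. Of nuclear genes, fixed key factors, the most abundant tested subunit of each complex and the called genes of lists with 5 or fewer calls were named. Members and lists were chosen with earlier results of these data known. In simulated data with 200 changed genes among 12712, limma recovered 35.8% of 1.5-fold, 61.2% of 2-fold and 93.9% of 4-fold changes, with 8 false calls. The changed genes were drawn from well-expressed genes only and were far fewer than the genes called in the real data. Noise was independent between genes, with no library shifted as a whole. The rates therefore do not hold for low tRNA genes or for the mitochondrial mRNAs as a set. Alternatives covered pseudocount, filter, rescaling, variance model, replicate block, addition of the copies and omission of each library. The alternatives that involve the chromosome 1 copies were chosen after seeing the data.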

Additional observations from a re-analysis of the deposited data

How the results depend on the processing

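The labels number replicates alike in both groups, but same-numbered libraries did not deviate together (correlations 0.0029, 0.0021 and -0.025), so the numbers were not taken as pairs. With a replicate block, 1551 genes were called in all instead of 2583, 8 nuclear genes of the mitochondrial lists were lower instead of 33, and 0 of the 79 nuclear subunits instead of 8. The members called were mt-Ti and mt-Th, and mt-Nd3 was not (adjusted p = 0.12). Leaving out each library gave 1306 to 2282 calls over all genes, 0 to 1 members higher, 1 to 3 members lower and 4 to 33 nuclear list genes lower. With no filter, 1 member and 15 nuclear list genes were lower. Median-ratio rescaling left 1 member lower, 23 nuclear list genes lower and 3 nuclear list genes higher, and adding the copies left 1 member lower. Rescaling to the sum of the mitochondrial mRNAs gave 1281 calls over all genes, 4 nuclear list genes lower and a member median of -0.20 (all genes -0.25). Under it, log2 fold changes turned to -0.042 for mt-Co1, -0.23 for mt-Co2, -0.26 for mt-Co3, -0.10 for mt-Nd2, -0.044 for mt-Nd4, -0.20 for mt-Tw, -0.21 for mt-Ta, -0.25 for mt-Tn, -0.21 for mt-Tc, -0.20 for mt-Td and -0.19 for mt-Te. With a common sum of all genes, mt-Co2, mt-Co3, mt-Tn and mt-Td had -0.016, -0.048, -0.030 and -0.042. mt-Td had -0.00015 and -0.00070 with pseudocounts of 0.1 and 0.01 and -0.0039 with a common sum without mitochondrial genes. mt-Rnr1 had 0.087 after median-ratio rescaling and 0.012 with a common sum without mitochondrial genes and copies. Without 1 library at a time, log2 fold changes crossed 0 for mt-Co2 (-0.13 to 0.17), mt-Co3 (-0.11 to 0.14), mt-Nd2 (-0.0044 to 0.30), mt-Rnr1 (-0.10 to 0.061), mt-Ta (-0.059 to 0.13), mt-Tc (-0.056 to 0.16), mt-Td (-0.085 to 0.14), mt-Te (-0.03 to 0.24), mt-Tn (-0.10 to 0.10), mt-Tq (-0.50 to 0.039), mt-Tr (-0.36 to 0.11), mt-Ts2 (-0.45 to 0.36) and mt-Tt (-0.33 to 0.13). Rescaling divides all genes of a library by the same factor, so the shifts under it are shared by all genes. They are smaller for low genes, because the pseudocount is added afterwards. The cause of the other shifts was not tested. The mitochondrial share, HepKO minus Flox, was 0.526 to 4.20 percentage points without 1 library at a time.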
